A study of Mus musculus with 21 samples.

Results

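The IFITM genes Ifitm1, Ifitm2, Ifitm3 and Ifitm10 were followed across 21 single-cell RNA libraries of mouse CD8 T cells, as 4 of the 17516 gene symbols counted in every library. They were picked by name, after their levels in these libraries were known, so the levels and differences below describe the libraries and are no independent test. The cells were OT1 cells, CD8 T cells with a transgenic receptor for a peptide of ovalbumin. Naive cells were profiled on day 0. All other cells had been activated on day 0 through CD3 and CD28 by antibody-coated beads. They were then expanded with 1 of 3 cytokines (IL-2, IL-15 or IL-2v) at 5 or 50 IU/mL and profiled on days 3, 5 and 10, which gave 18 libraries. Activated cells without cytokine were profiled on days 3 and 5. IL-2v is called a mutant IL-2bg in the treatment labels. Each condition had 1 library, so there was no replicate, no test between conditions and no p-value, and each value stands for that library alone. The 3 libraries titled IL-2 at 50 IU/mL carry treatment labels that name interleukin-3, and the 3 titled IL-15 at 50 IU/mL carry labels that name interleukin-16. The titles were followed here, and the comparisons between cytokines and between days are also given without these 6 libraries. The dose steps of IL-2 and IL-15, and the comparisons of their 50 IU/mL libraries with no cytokine, cannot be had without them. The extraction notes describe sorting of live CD44+ CD45.1+ CD8+ cells from tumours while the growth notes describe culture, and which applied cannot be told apart from the files.

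IFITM proteins are small membrane proteins, best known as interferon-induced factors that hinder the fusion of viruses with the membranes of the cells they enter. IFITM1 sits largely at the cell surface, whereas IFITM2 and IFITM3 are found mostly in endosomes and lysosomes. Type I interferons act on genes that carry the interferon-stimulated response element (ISRE), and interferon gamma acts on genes with gamma-activated sites (GAS). IL-2 and IL-15 share the beta and gamma chains of their receptors and signal mainly through STAT5, which binds GAS-like letters as well. IFITM3 has been described in CD8 memory cells resident in tissues. IFITM10 belongs to the same family but is not known as an interferon-induced gene.

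Ifitm1, Ifitm2 and Ifitm3 lie within 55.9 kb of chromosome 7 (build GRCm38, GENCODE annotation). Ifitm2 covers chr7:140954837-140955987 on the minus strand, Ifitm1 chr7:140967221-140969825 on the plus strand and Ifitm3 chr7:141009586-141010770 on the minus strand. Ifitm10 covers chr7:142325837-142373753 on the minus strand, 1.32 Mb beyond Ifitm3. All 4 are annotated as protein-coding. The promoters of the 3 clustered genes are shown because these genes moved together in the libraries below. Each line holds the 80 bases before the RefSeq start site and the first 30 transcribed bases (GRCm38.p6), written 5′ to 3′ on the strand of the gene, with matches to 2 motifs in capitals.
Ifitm1 (chr7:140967996-140968105, plus): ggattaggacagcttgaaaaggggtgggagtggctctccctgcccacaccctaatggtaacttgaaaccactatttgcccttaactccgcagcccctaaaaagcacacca
Ifitm2 (chr7:140955932-140956041, minus): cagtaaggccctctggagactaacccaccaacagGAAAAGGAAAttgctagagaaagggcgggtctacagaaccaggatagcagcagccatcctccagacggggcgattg
Ifitm3 (chr7:141010715-141010824, minus): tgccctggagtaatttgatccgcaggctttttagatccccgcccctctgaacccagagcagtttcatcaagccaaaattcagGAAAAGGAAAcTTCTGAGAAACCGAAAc

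The motifs were TTTC and TTTC with any 2 bases between them for the ISRE, and TTCNNNGAA for the GAS, searched on both strands of the whole window from 250 bases before to 50 after the start. Ifitm2 held 1 ISRE match, GAAAAGGAAA, at -46 to -37. Ifitm3 held the same GAAAAGGAAA at 3 to 12 and a second ISRE match, GAAACCGAAA, at 20 to 29. A GAS match, TTCTGAGAA, lay at 14 to 22 in Ifitm3 and overlapped the second ISRE match. Neither the Ifitm1 window nor the 3 Ifitm10 windows held either set of letters. The whole Ifitm1 window (chr7:140967826-140968125) lies inside the GENCODE span of the gene, which starts at 140967221. Bases before that GENCODE start were not searched. Of 32851 RefSeq promoter windows of this length, 3.44% held the ISRE letters and 8.30% the GAS letters. A match describes letters only.

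The 3 clustered genes resemble each other, which bears on how reads were assigned. Their aligned reference transcripts were 76.9% identical between Ifitm2 and Ifitm3, 71.8% between Ifitm1 and Ifitm2 and 71.9% between Ifitm1 and Ifitm3. No stretch of 90 bases was shared between these 3 transcripts. Of the 90-base stretches of Ifitm2, 37.8% also occurred in another annotated gene, mostly the overlapping gene model Gm45717 on the same strand, which shares 40.9% of the exonic bases of Ifitm2. At 50 bases, 48.5% of the stretches of Ifitm2 recurred elsewhere, against 10.0% of Ifitm3, 6.36% of Ifitm1 and 5.00% of Ifitm10. Gm45717 and the pseudogenes that share these stretches were not among the counted symbols. Absolute Ifitm2 values are therefore uncertain, and so are the shares and ratios between the genes given below.

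The libraries held 3250 to 7105 cells and 10589950 to 32648496 unique molecular identifiers (UMIs), each marking 1 captured RNA molecule, with a median of 3016 to 5065 UMIs per cell. Summed CD8 T cell markers (Cd3e, Cd3d, Cd8a, Cd8b1 and Trac) stood at 1843 to 4354 CPM, the UMIs of a gene scaled to a common library total, and CD4 T cell markers at 0 to 4.77 CPM. Of the 6 myeloid markers counted, Lyz2 and Csf1r were at 0 in 20 of 21 libraries and Cd14 in 18. Fcer1g reached 113 CPM and Cd68 14.9 CPM, and the sum of the 6 was highest on day 10 with 50 IU/mL IL-2 (129 CPM) and with 50 IU/mL IL-2v (50.6 CPM), the libraries with the most Ifitm1. Summed B cell markers, mostly Ighm, ran from 30.1 to 756 CPM and were lowest in these same libraries (30.1 and 97.5 CPM). Both NK markers (Klrb1c and Ncr1) together ran from 0 to 36.7 CPM, with Ncr1 at 0 in 20 of 21 libraries. Their sum was highest in the 3 libraries with the most Ifitm1, all of day 10 (36.7 CPM in IL-2v cells at 50 IU/mL, 22.0 and 21.3 CPM in IL-2 cells at 5 and 50 IU/mL), and 3.57 CPM or less elsewhere. The part of these marker levels in the results was not tested. Any 2 libraries shared 1 to 19 cell barcodes, at most 0.340% of the smaller library.

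Ifitm1 was almost absent from naive cells and became abundant by day 10 with IL-2 or IL-2v. Naive cells held 0.650 CPM of Ifitm1 (12 UMIs, exact Poisson 95% interval 0.336 to 1.14). With 50 IU/mL IL-2 it stood at 17.4 CPM on day 3, 730.1 on day 5 and 4950 on day 10. With 5 IU/mL IL-2 the values were 6.76, 326.9 and 1953 CPM. Every later day was above the one before in these series. With 50 IU/mL IL-2v, Ifitm1 stood at 33.2, 832 and 2669 CPM on days 3, 5 and 10. With 5 IU/mL IL-2v it stood at 4.78, 147 and 450 CPM. At the same day and dose, IL-15 cells stayed far below these levels from day 5 on. At 50 IU/mL IL-15 the values were 4.39, 65.7 and 110 CPM, and at 5 IU/mL they were 6.89, 16.1 and 2.19 CPM, so the low-dose IL-15 library on day 10 was the nearest to naive cells. Without cytokine, Ifitm1 stood at 7.60 CPM on day 3 and 8.96 on day 5. In the order of the 21 levels, the Poisson intervals of neighbours overlapped in 6 of 20 places. These were the place between 50 IU/mL IL-2 on day 3 and 5 IU/mL IL-15 on day 5, and 5 places in the run from no cytokine on day 5 down to 50 IU/mL IL-15 on day 3.

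Ifitm2 was highest in the same 2 libraries as Ifitm1, and was already present in activated cells without cytokine. Naive cells held 0.271 CPM (5 UMIs), and activated cells without cytokine 20.4 CPM on day 3 and 6.04 CPM on day 5. With 50 IU/mL IL-2 it stood at 71.5, 641 and 1992 CPM on days 3, 5 and 10, and with 5 IU/mL IL-2 at 27.1, 244 and 615 CPM. The IL-2v series were 43.5, 468 and 1131 CPM at 50 IU/mL and 16.4, 57.9 and 150.0 CPM at 5 IU/mL. Under IL-15, the series were 19.7, 37.7 and 28.8 CPM at 50 IU/mL and 22.4, 12.4 and 0.429 CPM at 5 IU/mL. The low-dose IL-15 library thus lost Ifitm2 over time, and its day 10 interval (0.206 to 0.789) overlapped that of naive cells (0.0879 to 0.632).

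Ifitm3, counted less often, also had its 3 highest levels on day 10, at both IL-2 doses and the higher IL-2v dose. It stood at 1.41 CPM in naive cells, 3.06 and 4.13 CPM without cytokine on days 3 and 5, and 5.45, 93.6 and 587 CPM with 50 IU/mL IL-2. With 5 IU/mL IL-2 it stood at 2.62, 66.0 and 230 CPM. The IL-2v series were 10.2, 64.8 and 301 CPM at 50 IU/mL and 2.99, 14.3 and 38.8 CPM at 5 IU/mL. The IL-15 series were 1.70, 8.24 and 12.7 CPM at 50 IU/mL and 2.13, 6.09 and 0.172 CPM at 5 IU/mL. The last value rests on 4 UMIs and lies below the naive level, with intervals that do not overlap (0.0468 to 0.439 against 0.920 to 2.06). On day 5, 5 IU/mL IL-2 and 50 IU/mL IL-2v could not be separated in Ifitm3 by their intervals.

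Ifitm10 ran a different course. Its highest levels were 16.7 CPM with 5 IU/mL IL-15 on day 10, 16.6 CPM in naive cells and 15.8 CPM with 50 IU/mL IL-15 on day 10, whose intervals overlapped. Its lowest were 0.485 CPM with 50 IU/mL IL-2 on day 3 (8 UMIs), 1.99 CPM with 50 IU/mL IL-2v on day 3 and 2.27 CPM with 50 IU/mL IL-2 on day 5. Without cytokine it stood at 3.28 CPM on day 3 and 8.41 on day 5. On day 10 it was back at 11.8 CPM with 50 IU/mL IL-2 and 13.3 CPM with 50 IU/mL IL-2v. Ifitm10 never reached the 20 CPM required for the comparisons below, so it was never called and mainly its levels are described. Across the 21 libraries, Pearson's r of log2(CPM + 1) with Ifitm10 was 0.07 for Ifitm1, -0.20 for Ifitm2 and 0.10 for Ifitm3.

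**Figure D1:**
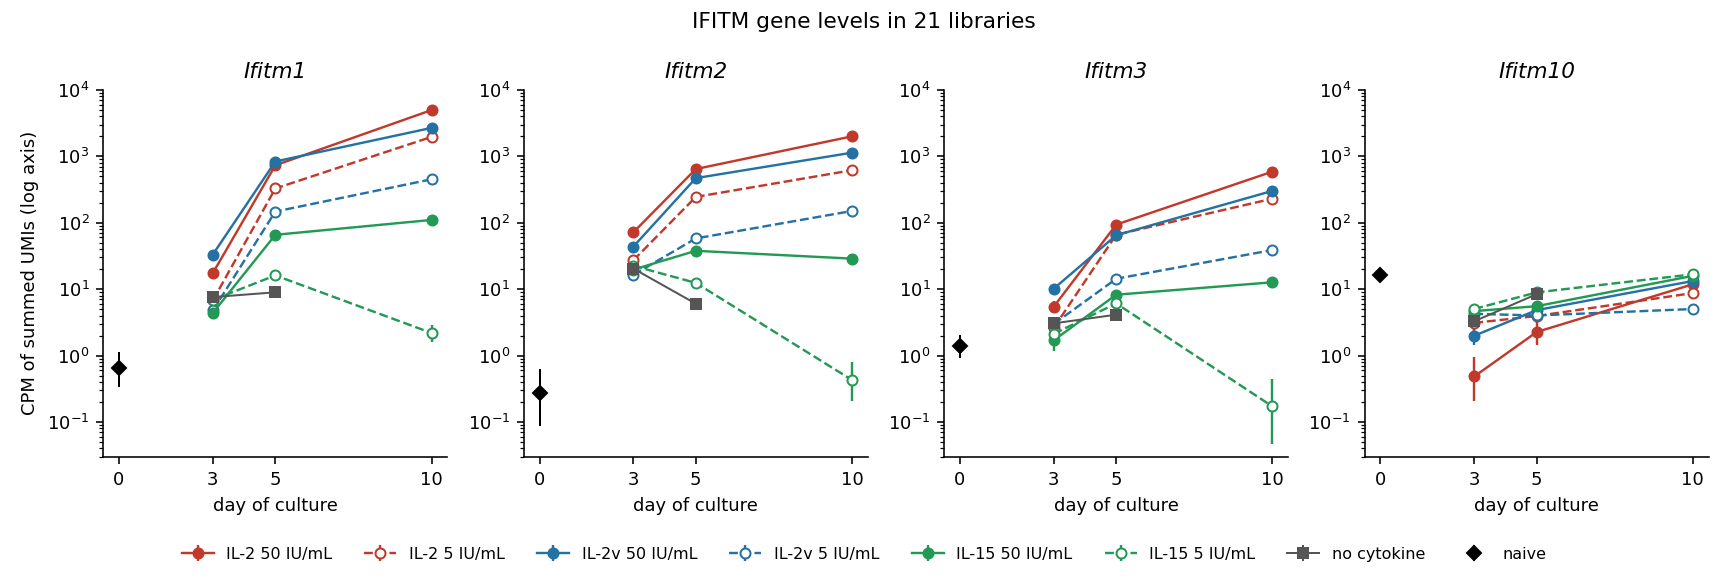
Level of each IFITM gene (CPM of summed UMIs, log axis) by day of culture, 1 point per library, with exact Poisson 95% intervals; filled circles and solid lines are 50 IU/mL, open circles and dashed lines 5 IU/mL. Ifitm1, Ifitm2 and Ifitm3 fan out from day 3 to day 10, from 4950 CPM (Ifitm1, 50 IU/mL IL-2) down to 0.172 CPM (Ifitm3, 5 IU/mL IL-15), while Ifitm10 stays between 0.485 and 16.7 CPM.

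The levels changed through both the share of cells with a transcript and the number of UMIs in those cells. Cells were thinned to 2000 UMIs each so that depth did not set the shares. On day 10 with IL-2 at 50 IU/mL, 84.8% of cells had an Ifitm1 UMI (exact binomial 95% interval 83.7 to 85.8; 87.8% before thinning), 91.7% an Ifitm2 UMI (95.9% before thinning) and 46.5% an Ifitm3 UMI (62.2% before thinning). At the same dose and day, IL-2v cells had shares of 66.9%, 70.9% and 31.7%, and IL-15 cells had shares of 6.83%, 3.88% and 1.90%. At 5 IU/mL on day 10, Ifitm1 was seen in 46.3% of IL-2 cells, 20.7% of IL-2v cells and 0.111% of IL-15 cells, and Ifitm2 in 42.6%, 16.6% and 0.0742%. In naive cells the shares were 0.0447% for Ifitm1, 0.0671% for Ifitm2 and 0.157% for Ifitm3. Thinned cells that had Ifitm1 held 11.1 Ifitm1 UMIs on average with 50 IU/mL IL-2 on day 10, whereas such IL-2v cells held 7.37 and such IL-15 cells 3.15 at that dose. In the IL-2 library 1 cell held 229 Ifitm1 UMIs, and the cells richest in it, 10% of all cells, held 33.1% of them.

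Without cytokine, Ifitm1 was seen in few cells. In that state 0.875% of unthinned cells had Ifitm1, with 4.33 UMIs each on average and up to 33 in 1 cell, on day 3. Ifitm2 was seen in 6.78% of the same cells, with 1.5 UMIs each. No cell class known to lack these genes was present in the libraries, so the part of free RNA in the shares was not tested.

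**Figure D2:**
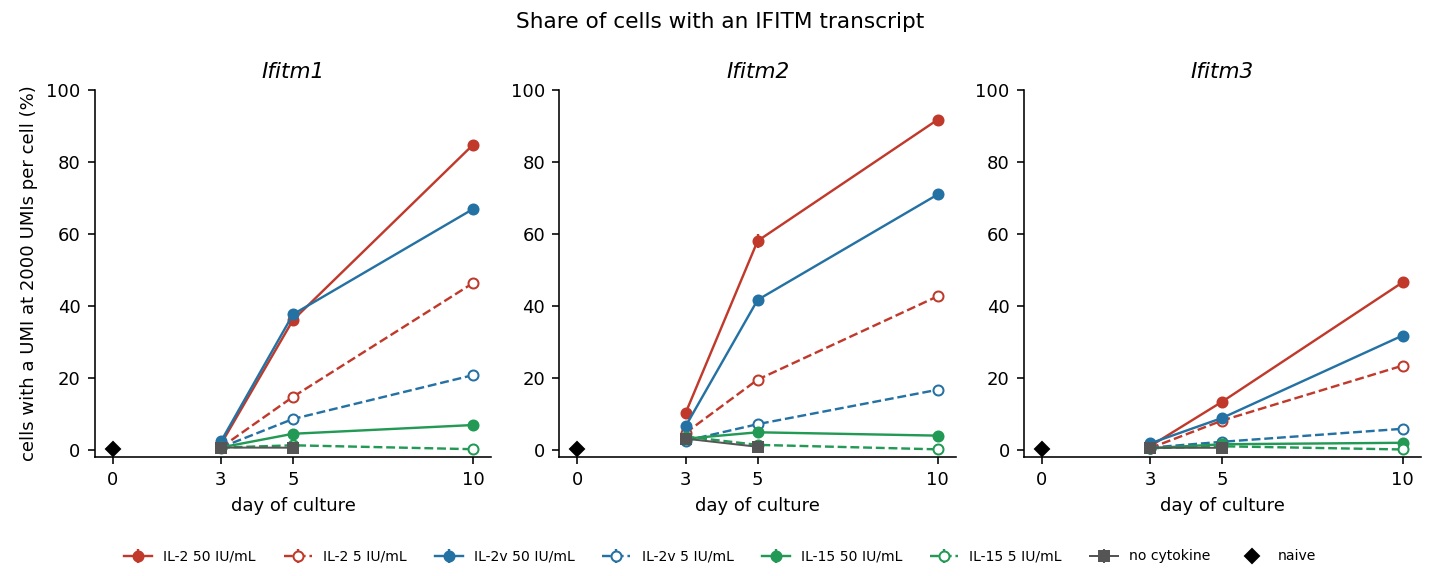
Share of cells (%) with at least 1 UMI of Ifitm1, Ifitm2 or Ifitm3 after thinning to 2000 UMIs per cell, by day, 1 point per library with exact binomial 95% intervals. On day 10 the Ifitm2 share runs from 91.7% (50 IU/mL IL-2) to 0.0742% (5 IU/mL IL-15), and the naive and cytokine-free libraries lie at 3.04% or less.

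IL-15 cells held less Ifitm2 and Ifitm3 than IL-2 cells of the same day and dose, and less Ifitm1 in all pairs but 1. Ifitm10, too low to be called, was higher with IL-15 in 6 of 6 pairs (median 0.93, 0.39 to 1.93). Differences are given as log2(CPM + 1), which understates the change of low genes, and a gene was called over several pairs where all pairs had the same sign and the median was at least 1 in size. Ifitm2 was lower with IL-15 in 6 of 6 pairs, with a median of -4.12 (range -8.75 to -0.26), the lowest of the 5718 genes that reached 20 CPM. Ifitm3 was lower in 6 of 6 pairs, with a median of -3.30 (-7.62 to -0.21). At 5 IU/mL on day 3 it stood at 2.13 CPM with IL-15 and 2.62 CPM with IL-2, with overlapping intervals. The sign of that pair, and the call that needs it, lies within counting error. Ifitm3 also lay below 20 CPM in every IL-15 library, so it was tested only through the IL-2 libraries. The filter thus favoured this call, which is no support beyond the levels. Ifitm1 was lower in 5 of 6 pairs, with a median of -3.86 (-9.26 to 0.02), and was not called because the libraries with 5 IU/mL on day 3 stood at 6.89 and 6.76 CPM. Of all genes tested, 1.7% were called lower and 0.49% higher with IL-15. The gap grew with time. For Ifitm1 at 50 IU/mL, IL-2 cells held 3.98 times the IL-15 level on day 3, 11.1 times on day 5 and 45.0 times on day 10. At 5 IU/mL on day 10 the ratio was 893 for Ifitm1, from 51 UMIs in the IL-15 library. Without the libraries of conflicting labels, which leaves the 3 pairs at 5 IU/mL, the medians were -4.26 for Ifitm1, -4.19 for Ifitm2 and -3.24 for Ifitm3, with the same calls (0.855% of genes called lower). In these 3 pairs the IL-15 means of all 3 genes lay below 20 CPM, so the same limit of the filter applies to each.

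On day 10, IL-2v cells held levels of Ifitm1, Ifitm2 and Ifitm3 between those of IL-2 and IL-15 cells at the same dose. None of the 3 genes was called between IL-2v and IL-2 over all 6 pairs (0.274% of genes lower, 1.04% higher). The medians were -0.66 for Ifitm1 (-2.12 to 0.89), -0.76 for Ifitm2 (-2.06 to -0.45) and -0.74 for Ifitm3 (-2.54 to 0.79). Ifitm2 was lower with IL-2v in 6 of 6 pairs, and Ifitm1 and Ifitm3 in 4 of 6. At 50 IU/mL on day 3, Ifitm1 was 1.90 times and Ifitm3 1.86 times the IL-2 level in IL-2v cells, whereas Ifitm2 was lower. On day 10 IL-2 exceeded IL-2v in all 3 genes, by 4.35, 4.1 and 5.92 times at 5 IU/mL and by 1.85, 1.76 and 1.95 times at 50 IU/mL, in the order Ifitm1, Ifitm2 and Ifitm3. Over the 3 pairs at 5 IU/mL alone, which avoid the conflicting labels, Ifitm1 (median -1.15) and Ifitm2 (-2.03) were called lower with IL-2v, and Ifitm3 (-2.13) was not (0.729% of genes lower). The Ifitm1 call needs the sign of the day 3 pair, 4.78 CPM with IL-2v and 6.76 CPM with IL-2, whose intervals overlapped.

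Set against IL-15 at the same dose, IL-2v cells held more of all 3 genes from day 5 on. Ifitm3 was higher with IL-2v in 6 of 6 pairs, with a median of 2.44 (0.35 to 5.09). The smallest difference came from 2.99 and 2.13 CPM at 5 IU/mL on day 3, and the call needs the sign of that pair. No IL-15 library reached 20 CPM of Ifitm3, so it was tested only through the IL-2v libraries, which favoured its call. Ifitm1 (median 3.38, -0.45 to 7.14) and Ifitm2 (median 2.87, -0.43 to 6.72) were higher in 5 of 6 pairs and were not called. The exception was 5 IU/mL on day 3. Of all genes tested, 2.48% were called higher. These 3 cytokine comparisons share libraries, so their values are not independent of each other. At 5 IU/mL alone, Ifitm1 (3.11) and Ifitm2 (2.13) were not called either, beside 4.06% of genes called higher, and Ifitm3 did not reach 20 CPM.

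**Figure D3:**
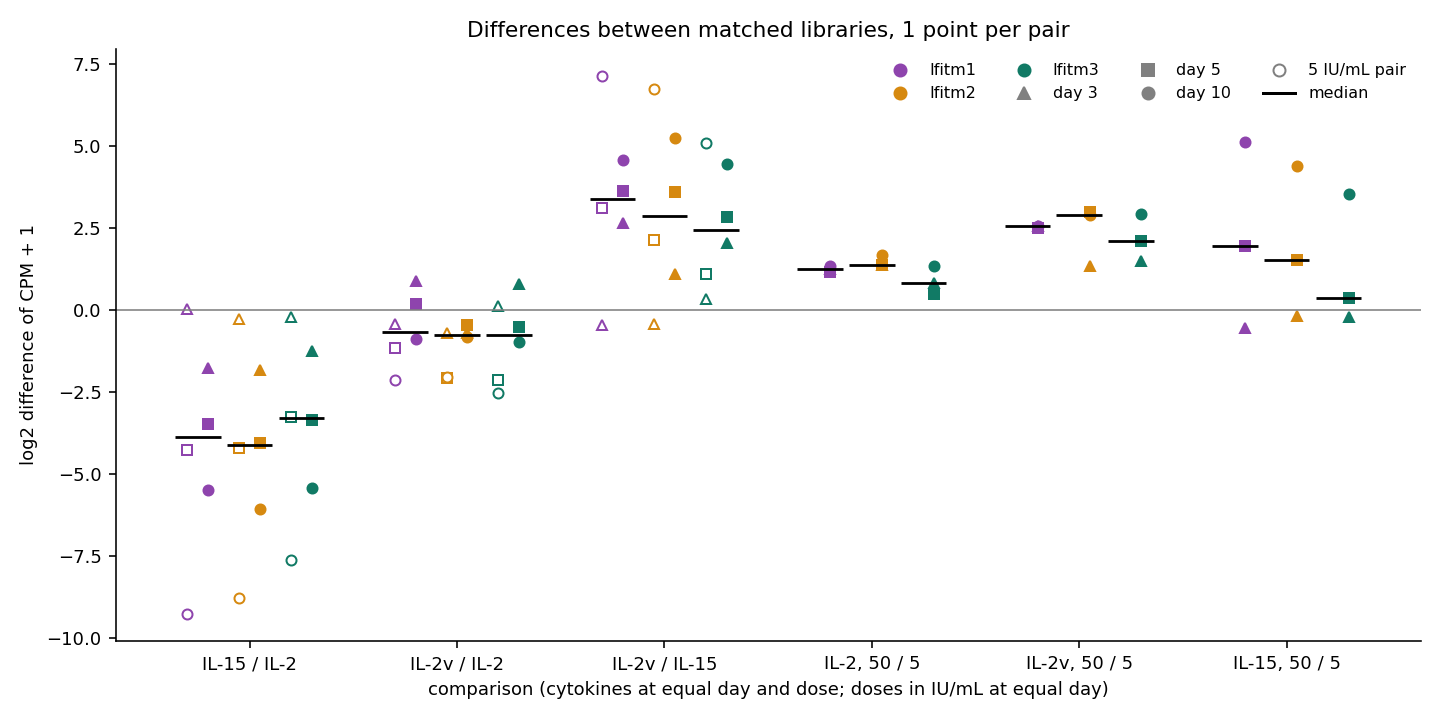
Log2 difference of CPM + 1 between matched libraries for Ifitm1, Ifitm2 and Ifitm3 (1 point per pair, shape by day, open where the pair is at 5 IU/mL, black line at the median). The IL-15 to IL-2 differences reach -9.26, the IL-2v dose steps all lie at 1.35 or above, and the IL-15 dose steps run from -0.55 to 5.12.

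Ifitm1, Ifitm2 and Ifitm3 were higher at 50 than at 5 IU/mL of IL-2v and of IL-2 on each day, whereas with IL-15 all 3 were lower on day 3 and higher on days 5 and 10. From 5 to 50 IU/mL IL-2v, Ifitm1 was higher by 2.57, 2.49 and 2.57 on the log2 scale on days 3, 5 and 10, Ifitm2 by 1.35, 2.99 and 2.91, and Ifitm3 by 1.48, 2.10 and 2.93. All 3 were called higher, beside 2.38% of all genes. Ifitm3 averaged below 20 CPM at 5 IU/mL IL-2v, so it was tested only through the 50 IU/mL libraries, which favoured its call. With IL-2, Ifitm1 (median 1.25, 1.16 to 1.34) and Ifitm2 (1.39, 1.37 to 1.69) were called higher and Ifitm3 (0.83, 0.50 to 1.35) was not, beside 4.29% of all genes. With IL-15, the steps of Ifitm1 were -0.55 on day 3, 1.96 on day 5 and 5.12 on day 10, and those of Ifitm2 were -0.18, 1.53 and 4.38. Neither was called, beside 0.869% of all genes, and Ifitm3 did not reach 20 CPM. On day 3, 5 and 50 IU/mL IL-15 gave 22.4 and 19.7 CPM of Ifitm2 and 2.13 and 1.70 CPM of Ifitm3. The intervals overlapped in both genes, so these 2 signs lie within counting error. The IL-2 and IL-15 dose steps rest wholly on libraries with conflicting labels, while the IL-2v step does not.

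On the log2 scale, the larger median step over time came between days 3 and 5, while in CPM the larger gain came between days 5 and 10. Averaged over the 6 cytokine libraries of a day, Ifitm1 stood at 12.2, 353 and 1689 CPM on days 3, 5 and 10. Ifitm1 was higher on day 5 in 6 of 6 cytokine and dose pairs, with a median of 4.64 (1.12 to 5.40), the highest of 5912 genes. Ifitm3 was also called higher (median 2.25, 1.18 to 4.21), beside 0.829% of all genes. On day 3 the means of Ifitm1 and Ifitm3 lay below 20 CPM, so both were tested only through the day 5 libraries. The filter thus favoured these 2 calls and the rank of Ifitm1, which are no support beyond the levels. Ifitm2 rose in 5 of 6 pairs (median 2.44) and stood lower with 5 IU/mL IL-15. From day 5 to day 10 the medians were 1.64, 1.30 and 1.58 for Ifitm1, Ifitm2 and Ifitm3. None was called, because all 3 genes were lower on day 10 with 5 IU/mL IL-15 and Ifitm2 also with 50 IU/mL IL-15, and 0.0705% of genes were called higher. From day 3 to day 10, Ifitm1 had the highest median of 5977 genes (6.29, -1.31 to 8.07) and was not called for the same reason, beside 0.87% of genes called higher. Its rank there carries the same limit of the filter. The medians of these time steps were the same without the libraries of conflicting labels.

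Ifitm2 was higher after activation and 3 days of culture, which cannot be told apart here. Against naive cells, activated cells without cytokine on day 3 held 4.07 more Ifitm2 on the log2 scale, past the limit of 1 used for single pairs, as were 11.1% of genes. Ifitm1 (2.38 higher) and Ifitm3 (0.75 higher) did not reach 20 CPM in either library. From day 3 to day 5 without cytokine Ifitm2 fell by 1.60 (with a pseudocount of 10, by 0.92, short of 1), and 9.47% of genes fell by at least 1. The same libraries without cytokine serve every comparison that follows. On day 3, Ifitm2 was 1.76 above them with 50 IU/mL IL-2 (6.45% of genes past 1), and 1.06 above with 50 IU/mL IL-2v, where Ifitm1 was 1.99 above (7.83% of genes). The last Ifitm2 difference did not pass 1 with TMM scaling (0.88), with totals free of ribosomal and mitochondrial genes (0.96) or with a pseudocount of 10 (0.82). The difference in Ifitm2 on day 3 was 0.39 with 5 IU/mL IL-2, -0.30 with 5 IU/mL IL-2v, 0.13 with 5 IU/mL IL-15 and -0.05 with 50 IU/mL IL-15. None of these 4 passed 1, beside 0.142, 0.211, 0.142 and 0.819% of genes that were higher by at least 1. On day 5, Ifitm1, Ifitm2 and Ifitm3 were 5.04, 5.12 and 3.71 higher with 5 IU/mL IL-2, and took ranks 2, 1 and 3 among 5281 genes, of which 2.14% passed 1. At 50 IU/mL IL-2 they were 6.20, 6.51 and 4.21 higher (16.5% of genes), and with 50 IU/mL IL-2v 6.39, 6.06 and 3.68 higher (21.1%). With 5 IU/mL IL-2v, Ifitm1 was 3.89 and Ifitm2 3.07 higher (9.75%). For 50 IU/mL IL-15 these differences were 2.74 and 2.46 (5.82%), and with 5 IU/mL IL-15 no member reached 20 CPM. Ifitm2 in naive cells, Ifitm1 without cytokine on day 3 and all 3 genes without cytokine on day 5 lay below 20 CPM. For each of these, the gene was tested only where the other library of the pair reached 20 CPM. That alone sets a difference past 1, so passing 1 was fixed in advance there and is no result.

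The make-up of the 3 genes shifted with time in every cytokine. Among the summed UMIs of Ifitm1, Ifitm2 and Ifitm3, Ifitm1 made up 17.0 to 38.2% in the 6 cytokine libraries on day 3, 46.5 to 67.0% on day 5 and 65.1 to 78.5% on day 10. Day 3 did not overlap the later days, and day 5 and day 10 overlapped, since 5 IU/mL IL-2v on day 5 (67.0%) stood above 50 IU/mL IL-2v (65.1%) and 50 IU/mL IL-2 (65.8%) on day 10. Within each cytokine and dose the share was higher on each later day. The ratio of Ifitm1 to Ifitm2 UMIs had a median of 0.270 on day 3 (0.223 to 0.763), 1.54 on day 5 (1.14 to 2.54) and 3.09 on day 10 (2.36 to 5.10). Without cytokine it was 0.372 on day 3 and 1.48 on day 5, inside the ranges of those days, although the summed level stood at 31.1 and 19.1 CPM. On day 5 the summed level of the cytokine libraries ran from 34.6 CPM with 5 IU/mL IL-15 to 1465 CPM with 50 IU/mL IL-2, at ratios of 1.30 and 1.14. The share of Ifitm3 lay between 4.74 and 17.6% in the cytokine libraries with no such order. In naive cells (43 summed UMIs) it was 60.5%, at a ratio of Ifitm1 to Ifitm2 of 2.4. The highest values of day 10 (78.5% and 5.10) rest on 65 summed UMIs with 5 IU/mL IL-15. At the top, with 50 IU/mL IL-2 on day 10, the 3 genes made up 0.753% of all UMIs of the library.

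**Figure D4:**
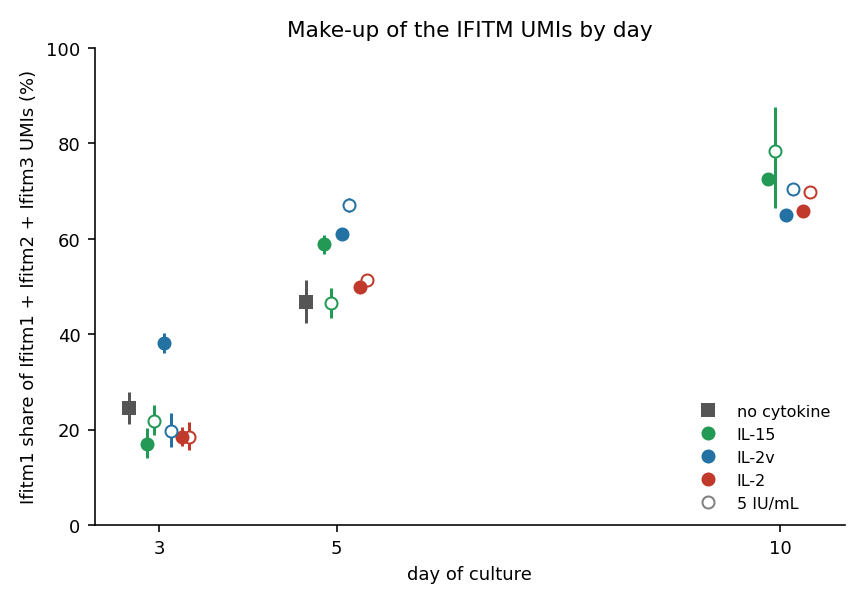
Share of Ifitm1 (%) in the summed UMIs of Ifitm1, Ifitm2 and Ifitm3 by day, 1 point per library with exact binomial 95% intervals, open for 5 IU/mL. Points are spread sideways by cytokine, and naive cells are not drawn. The cytokine libraries lie at 17.0 to 38.2% on day 3, 46.5 to 67.0% on day 5 and 65.1 to 78.5% on day 10.

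Within libraries, cells with 1 of the 3 transcripts held the others more often than other cells did. In thinned cells, Ifitm1 was seen more often in cells with an Ifitm2 UMI than in cells without in 17 of 17 libraries with at least 100 Ifitm2-positive cells, by a median of 7.95 times (1.07 to 39.8). Ifitm3 was seen more often with Ifitm2 in 17 of 17 libraries (median 5.68 times, 1.51 to 22.4) and with Ifitm1 in 11 of 11 (5.88 times, 1.17 to 10.5). With 5 IU/mL IL-2 on day 10, 71.9% of Ifitm2-positive cells and 27.3% of the others held Ifitm1. All 3 transcripts were seen in 37.9% of cells with 50 IU/mL IL-2 on day 10, in 22.8% with 50 IU/mL IL-2v, in 13.3% with 5 IU/mL IL-2 and in 0.186% with 50 IU/mL IL-15, so that most cells with any of the 3 did not show all of them (38.5% did in the first of these libraries). Division did not separate these cells in 1 direction. Ifitm2 was seen more often in cells with an Mki67 or Top2a UMI in 13 of 17 libraries, Ifitm1 in 6 of 11 and Ifitm3 in 1 of 8. With IL-2v at 50 IU/mL, 43.8% of such cells and 36.9% of the others held Ifitm2 on day 5, and 65.6% and 72.7% on day 10. Mki67 and Top2a UMIs were looked for before thinning. On day 3 the Ifitm2 differences were 0.81 percentage points or less in size, so the counts of libraries include very small differences.

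Cells with Ifitm2 also differed from the other cells of their library in genes outside the family. Over the 17 libraries, Ifitm1 had the largest median difference in share of positive cells, 25.2 percentage points. It was followed by S100a4 (14.8 points) and S100a6 (14.3), which encode calcium-binding proteins, Lgals3 (13.0), which encodes galectin 3, and Anxa2 (10.6), which encodes an annexin. Each was higher in the Ifitm2-positive cells of 17 of 17 libraries. These genes were picked among 17515 for their differences in the same libraries, so that count is no separate support. Among the genes at the other end, chosen after the values were seen, stood Ifi27l2a (-11.7 points), an interferon-stimulated gene, Cd8b1 (-11.1), Tcf7 (-8.51), the transcription factor TCF1 of naive and memory cells, and Dapl1 (-7.90). With 5 IU/mL IL-2 on day 10, Tcf7 was seen in 18.3% of Ifitm2-positive and 38.1% of other cells, and S100a4 in 72.3% and 42.4%. A UMI of a myeloid marker, looked for before thinning, was also more frequent in these cells. On day 10, in IL-2 cells at 50 IU/mL, it was seen in 25.8% of Ifitm2-positive and 19.6% of other cells, in 27.1% and 14.8% when split by Ifitm1, and in 25.4% and 25.1% when split by Ifitm3. In IL-2v cells at 50 IU/mL the shares were 12.9% and 5.29% by Ifitm2, 13.5% and 5.01% by Ifitm1, and 14.3% and 9.02% by Ifitm3. Of the 6 markers, Lyz2, Csf1r and Cd14 were at 0.623 CPM or less in every library, while Fcer1g reached 113, Cd68 14.9 and Itgam 4.54 CPM, and their part in the result was not tested. Without all cells with such a UMI, Ifitm1 stood at 4688 CPM in the IL-2 library and 2423 CPM in the IL-2v library, against 4950 and 2669 CPM in all cells.

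Across the 21 libraries, the genes most like each member by Pearson's r of log2(CPM + 1), among 7270 other genes that reached 20 CPM, included other members and genes outside the family. Ifitm1 was closest to Ifitm3 (0.98), then Rab27b (0.96), a GTPase of granule release, Lilr4b (0.94), an immunoglobulin-like receptor, Dusp3 (0.94), a phosphatase, and Fgl2 (0.94), a secreted fibrinogen-like protein. Ifitm2 was closest to Fgl2 (0.97), Dusp3 (0.95), Trim16 (0.95), Lgals3 (0.94) and Ifitm1 (0.93). For Ifitm3 the 5 were Ifitm1 (0.98), Ifitm2 (0.93), Lilr4b (0.93), Rab27b (0.93) and Pilrb1 (0.93). Fgl2 stood at 2.92 CPM in naive cells and 175 CPM with 5 IU/mL IL-2 on day 10, and Lgals3 at 11.9 and, with 50 IU/mL IL-2 on day 10, 3156 CPM. Rab27b and Dusp3 were low, with medians of 1.27 and 4.62 CPM over the libraries. They peaked at 21.6 and 22.0 CPM with 50 IU/mL IL-2 on day 10, just past the filter. The libraries share cytokines and days, so these values describe a common course only.

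Other interferon-stimulated genes were followed in the same libraries. Their list held 35 genes, of which 22 reached 20 CPM in a library. Pearson's r with Ifitm2 over the 21 libraries had a median of -0.09 for these 22 genes (-0.51 to 0.69, with Oas3 at the top and Isg20 at 0.58) and of 0.59 for 14 STAT5 and IL-2 response genes (-0.57 for Socs3 to 0.81 for Gzmb). Both lists were chosen with earlier results of these data known, and no median r over all genes is given. These medians therefore describe the lists only and are no test of a cause. Between IL-15 and IL-2, where Ifitm2 and Ifitm3 were called lower, 0 of 18 tested interferon-stimulated genes were called in either direction, beside 1.7% of all genes lower and 0.49% higher, so that a count of 0 is near the background, and their median was 0.25 against -0.01 for all genes. From 5 to 50 IU/mL IL-2, where Ifitm1 and Ifitm2 were called higher, 0 of 19 were called higher and 7 lower, beside 2.7% of all genes called lower, with a list median of -0.85 against 0.03 for all genes. Among the 7 were Ifi27l2a (-1.49), Irf7 (-1.16), a factor that amplifies interferon production, Trim30a (-1.16), Samhd1 (-1.08), a nucleotide hydrolase that restricts viruses, Xaf1 (-1.03) and Parp14 (-1.01). Isg15 (1.22, -0.89 to 1.54) had no single direction. Without day 5 the counts were 2 higher and 4 lower, and with a pseudocount of 10 or the mean of single-cell CPM 3 were lower. In the dose steps of IL-2v and IL-15, 0 of 20 and 0 of 18 of these genes were called lower, beside 0.626 and 0.181% of all genes, and IL-2v called Isg20, an RNA exonuclease, higher. Against no cytokine on day 5, genes of this list were lower by at least 1 with other cytokines too. At 50 IU/mL, IL-2 had 14 of 20 such genes (7.54% of all genes), IL-2v 12 of 20 (5.53%) and IL-15 4 of 20 (1.9%). At 5 IU/mL, IL-2v had 8 of 20 (2.62%). IL-2 had 2 of 20 and IL-15 1 of 19 at that dose (list medians -0.47 and -0.41, against -0.13 and -0.08 for all genes). The share of all genes lower is not given for these 2, so their counts cannot be set against a background. Without cytokine, the list itself stood higher on day 5 than on day 3 (median 0.79 against -0.0016 for all genes). Isg15, Isg20, Irf7, Xaf1, Rtp4, Zbp1 and Parp14 were higher there by at least 1, 7 of 20 tested. The share of all genes higher in that pair is not given, so this count has no background. The part of this rise in the day 5 counts was not tested. On day 3, IL-2 at 50 IU/mL had 9 of 16 (2.74%). In the other cytokine libraries of day 3 no gene of the list was lower by at least 1, and the list medians ran from -0.10 to 0.10. Whether the steps differ between cytokines was not tested.

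Of 17 interferon gamma response genes, 15 were tested in the IL-2 dose step. Irf8 (2.0), an interferon-inducible transcription factor, was called higher, and Irf1 (-1.05), Gbp2 (-1.26), Iigp1 (-1.68) and Irgm1 (-1.35), which encode an interferon-induced factor and GTPases, were called lower, beside 4.29% of all genes higher and 2.7% lower. None of the 6 tested interferon receptors and kinases was called in that step, with a list median of -0.38. Of the STAT5 and IL-2 response genes, 3 of 14 were called higher with the IL-2 dose, beside 4.29% of all genes. These were Tnfrsf9 (4.65), the costimulator 4-1BB, Gzmb (2.63), granzyme B, and Il2ra (1.71), the IL-2 receptor alpha chain. Without day 10 the count was 9. Between IL-15 and IL-2, Il2ra, Lta, Gzmb and Tnfrsf9 were called lower among 13 tested, beside 1.7% of all genes. Without the libraries of conflicting labels 1 gene was, beside 0.855% of all genes. Genes that modify or bind IFITM proteins, such as the ubiquitin ligase gene Nedd4 (0.48) and the palmitoyltransferase gene Zdhhc20 (-0.27), were not called in the IL-2 dose step among 9 tested, although TMM scaling called 1 of the 9 higher.

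**Figure D5:**
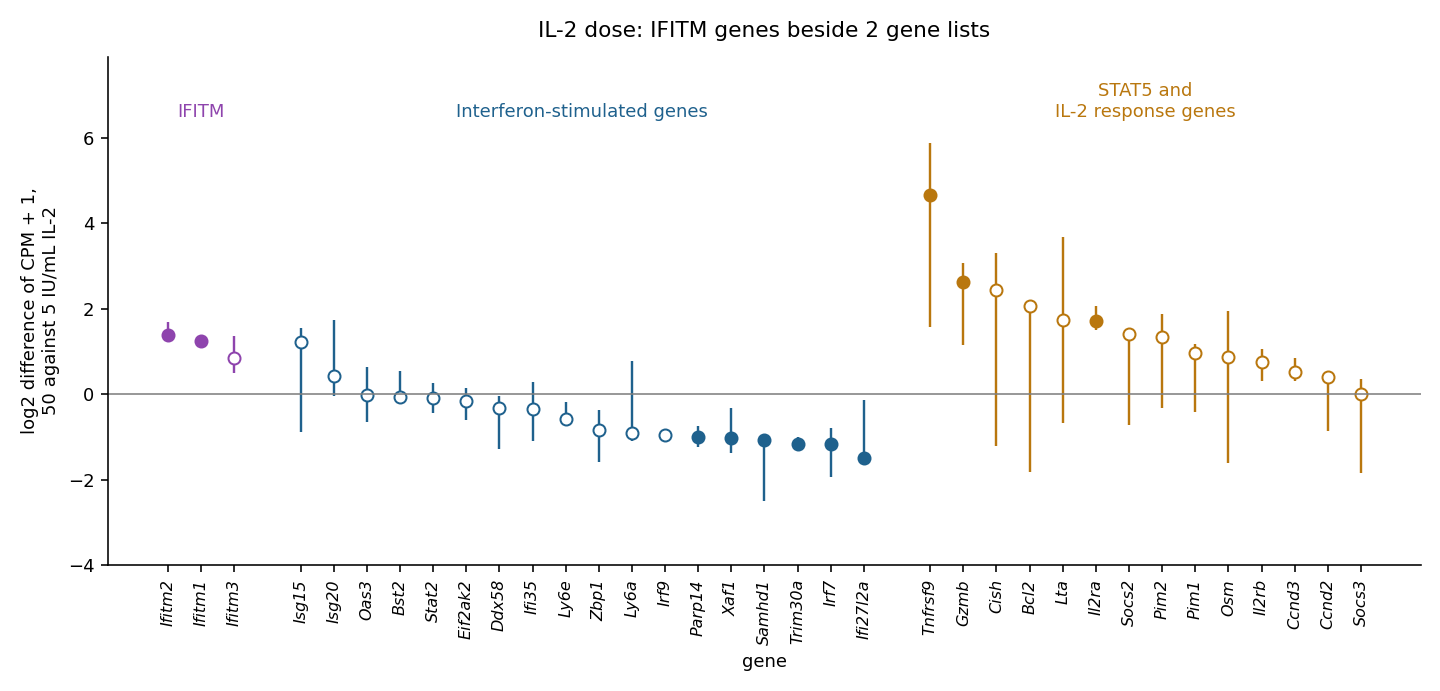
Log2 difference of CPM + 1 between 50 and 5 IU/mL IL-2 for Ifitm1, Ifitm2 and Ifitm3, 18 of the 19 tested interferon-stimulated genes and 14 STAT5 and IL-2 response genes. Points are medians over days 3, 5 and 10, lines run from the lowest to the highest day, and filled points are called genes. Ifitm1 and Ifitm2 lie above 1 while 6 of the interferon-stimulated genes drawn lie below -1.

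The rest of the family and the counted genes around the cluster stayed low or moved less. Gm45717, Gm7514, Gm17387 and Gm45299, also in or beside the cluster, were not among the counted symbols. Ifitm5, on the Ifitm2 side of the cluster beyond Gm45717 and known from bone-forming cells, reached at most 4.18 CPM, with 50 IU/mL IL-2 on day 10. Ifitm6, beside Ifitm3, reached at most 0.0367 CPM, and Ifitm7, on chromosome 16, at most 1.91 CPM. Pgghg, beyond Ifitm5, ran from 2.19 CPM with 5 IU/mL IL-15 to 16.3 CPM with 50 IU/mL IL-2, both on day 10. Ctsd, the cathepsin D gene beyond Gm49369 beside Ifitm10, ran from 106 to 900.0 CPM, with its highest level also with 50 IU/mL IL-2 on day 10.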

How the data were processed

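Single-cell RNA counts of 21 libraries, 1 per condition, were used. Per the submitters' processing notes the tools were Cell Ranger and Seurat (4.0.1 and 3.0.2) on build mm10, with no role or order stated. The annotation, the library chemistry and any removal of doublets are not given in the sources used here. The deposited tables hold raw UMI counts per gene and cell, and all values were whole. Groups follow the sample titles. Day 7 of the growth notes was not analysed here.

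The cell filter asked for 1000 UMIs or more, 500 genes or more and no more than 10% of UMIs from mitochondrial genes. Each gene's UMIs were then added up over a library and scaled to CPM, with exact Poisson 95% intervals, which like all intervals here cover counting error only. Shares of cells were taken after thinning each cell to 2000 UMIs at random, leaving out shallower cells (0.938 to 12.1% per library), with exact Clopper-Pearson 95% intervals. Differences were taken between log2(CPM + 1) values of libraries matched by day and dose, for genes whose mean over the libraries of either arm reached 20 CPM. A gene below 20 CPM in 1 arm was tested only through the arm where it was high, which favours a call. A gene was called where all pairs had the same sign and the median was at least 1 in size, or, for single pairs, at a size of 1. With 1 library per condition no model was fitted. The calling step was checked on simulated counts.

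The named genes were the 4 members, the other family genes, up to 3 neighbours on each side, the 5 genes most like each clustered member, the 5 genes with the largest median difference between cells with and without Ifitm2, and members of 5 lists. The members and lists were chosen with earlier results of these data known. Promoters came from RefSeq (GRCm38.p6), which held all 4 members. Tools were Python 3.11.15, pandas 2.3.3, scipy 1.17.1, Biopython 1.88 and, for the alternative TMM (trimmed mean of M values) factors, edgeR 4.0.16. Alternatives covered scaling, the pseudocount, the filters, deep cells (over 2 times the median UMIs) as possible doublets, cycling cells, single days and thinning. Doublets were not otherwise removed. Values of a few single genes are not reported here.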

Additional observations from a re-analysis of the deposited data

Results flagged for a closer look

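Between day 5 and day 10, Ifitm2 moved in opposite directions by cytokine. It was higher on day 10 at both doses of IL-2 (median log2 difference of CPM + 1 of 1.48) and at both doses of IL-2v (median 1.31), and lower at both doses of IL-15, where it went from 12.4 to 0.429 CPM at 5 IU/mL and from 37.7 to 28.8 CPM at 50 IU/mL. With 1 library per condition the difference between the cytokines was not tested. The 2 statements share the IL-15 libraries.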

How the results depend on the processing

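The labels give no replicate numbers to use as a block, and libraries were matched by day and dose. Between cytokines, doses and days, no direction of a median log2 difference turned under any alternative. Against no cytokine on day 3, small uncalled differences turned. In cells without an Mki67 or Top2a UMI, Ifitm2 with 50 IU/mL IL-15 turned to 0.32, and the sum of Ifitm1, Ifitm2 and Ifitm3 to 0.40 with 50 IU/mL IL-15 and 0.29 with 5 IU/mL IL-2v. For 5 IU/mL IL-15 that sum turned to -0.060 with TMM factors and -0.023 with totals free of ribosomal and mitochondrial genes. No call of Ifitm1, Ifitm2 or Ifitm3 between cytokines or doses was lost where the gene could be tested. Calls were gained. Without day 3, Ifitm1 was called between IL-15 and IL-2 (-4.87), Ifitm2 (-1.42) and Ifitm3 (-1.54) between IL-2v and IL-2, Ifitm1 (4.12) and Ifitm2 (4.42) between IL-2v and IL-15, and Ifitm1 (3.54) and Ifitm2 (2.96) in the IL-15 dose step. In that IL-15 step both genes lay below 20 CPM at 5 IU/mL on days 5 and 10. They were thus tested only through the 50 IU/mL libraries, which favoured these calls. Without day 5, Ifitm3 was called in the IL-2 dose step (1.09). In cells without an Mki67 or Top2a UMI, Ifitm1 was called between IL-15 and IL-2 (-3.94), between IL-2v and IL-15 (3.32) and in the IL-15 dose step (2.0). The next 2 alternatives were chosen after seeing the data. Without cells with a myeloid marker UMI, Ifitm1 was called between IL-15 and IL-2 (-3.85). Without the libraries of conflicting labels, Ifitm1 (-1.15) and Ifitm2 (-2.03) were called between IL-2v and IL-2. The cause of these changes was not tested, beyond the fewer pairs or cells used. The count of all genes called moved by over 1.5 times with a pseudocount of 10, without the filter and without day 3. For IL-15 against IL-2 it went from 125 to 72, 240 and 266, for IL-2v against IL-15 from 178 to 66, 329 and 445, for the IL-2 dose from 411 to 260, 851 and 664, for the IL-2v dose from 178 to 99, 423 and 305, and for the IL-15 dose from 58 to 28, 135 and 182 (29 without day 10). For IL-2v against IL-2 it went from 77 to 16 with that pseudocount, 224 without day 3, 44 without day 10, 45 in cells without an Mki67 or Top2a UMI and 215 without the libraries of conflicting labels, which left 55 for IL-15 against IL-2. Scaling moved the share of called genes that were higher. With totals free of ribosomal and mitochondrial genes it went from 61.3 to 50.6% in the IL-2 dose step, from 22.4 to 33.6% for IL-15 against IL-2 and from 80.9 to 64.1% for IL-2v against IL-15. With TMM factors it went to 62.1% in the last, from 79.2 to 59.0% for IL-2v against IL-2 and from 79.2 to 63.9% in the IL-2v dose step, where the median of all genes moved from 0.10 to -0.03. Depth limits the naive and low-dose IL-15 day 10 libraries, where the members have 4 to 51 UMIs each apart from Ifitm10. Shares of cells follow depth: without thinning, or thinned to 1000 UMIs, 151 of the members' shares moved beyond their binomial intervals and 17 did not. Of their CPM values, 36 moved beyond their counting intervals under the cell filters and 216 did not.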
